A study of Mus musculus with 11 samples.

Results

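Messenger RNA of 10 genes of the tissue factor and protein C pathway was examined in whole mouse aortic valves. The genes were chosen by symbol (F3, Procr, Thbd, Tfpi, Tfpi2, F5, F10, F2r, Pros1 and Thbs1), and each matched 1 of the 46983 rows of the count table. All mice were wild type. Valve endothelium was damaged with a wire in the living animal, or sham surgery was done, and valves were taken 48 hours later, with 1 mouse per library. Mice called young here were aged 3 to 4 months, and those called aging 16 to 18 months. Young mice gave 3 sham and 3 injured libraries, and aging mice 3 sham and 2 injured. The comparisons asked how injury and age changed the balance between genes that start clotting and genes that hold it back.

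Tissue factor, encoded by F3, is a membrane protein of cells under the endothelium that starts clotting when blood reaches it. It binds factor VII, and the complex activates factor X, which with factor V makes thrombin. Endothelial cells carry the opposing proteins. Tissue factor pathway inhibitor blocks the first step, and thrombomodulin holds thrombin so that it activates protein C, which the endothelial protein C receptor presents and for which protein S is the cofactor. Activated protein C then cuts factor V. Coagulation factors of the blood plasma are made mostly in the liver, so their mRNA in a valve does not measure the protein there.

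Of the 10 genes, Procr, the endothelial protein C receptor, was the 1 called by edgeR for injury averaged over age, upward. It stood at 11.9 ± 6.01 CPM (counts scaled by library size to a common total) in all sham (SD, n = 6) and at 45.8 ± 23.8 in all injured libraries (n = 5). Its log2 fold change was 2.02 ± 0.40 (SE), with an adjusted p of 0.0677 in edgeR's quasi-likelihood test over 19366 genes. The call was lost without any 1 of 6 of the 11 libraries, with limma-voom, and when the 3 libraries with the fewest genes detected had their own term. A gene was called as changed at an adjusted p under 0.1 and a fold over 2. In this comparison 0.594% of all genes tested were called, 0.434% upward and 0.16% downward. At an unadjusted p under 0.05 there were 3 of the 10, Procr, Tfpi2 and Thbs1, against 11.5% of all genes, and DESeq2 called 2 of the 10 (2.12% of all genes) and limma-voom 0 (0.377%). The median log2 fold change was 0.13 over the 10 genes and -0.01 over all genes. Tfpi2, a tissue factor pathway inhibitor relative, stood higher in every injured than in every sham library, at a log2 fold change of 1.87 ± 0.49, but did not pass (adjusted p = 0.151). F3 stood at -0.11 ± 0.20, Thbd, which encodes thrombomodulin, at 0.10 ± 0.17 and Tfpi at -0.12 ± 0.20, none of them past the test.

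Libraries held 27124000 to 36353474 counts, and all CPM values are TMM-scaled. Between 18641 and 19015 genes had a count in 3 libraries, young sham 1 and aging injured 1 and 2. In the other 8 it was 20411 to 22533. Fewer detected genes thus cannot be told apart from injury in aging valves, or from age in injured valves. Injury averaged over age and the difference between the ages also use these libraries. The same 3 libraries carry consecutive library codes, the highest of those used, and the labels do not say what the codes mark. All 12 pan-endothelial and all 8 valve interstitial markers had counts. The summed pan-endothelial markers reached 573 CPM in young injured 1 and 874 to 1496 in the other 10 libraries, and the summed cardiomyocyte markers 33595 CPM in young injured 3 against 7544 and 8834 in the other young injured libraries. In whole tissue, fewer cells of a type and less RNA per cell cannot be told apart.

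The 10 genes spanned a wide range of level per length, taken as CPM per kilobase of exon. Thbs1 was highest with a median of 202 over the 11 libraries, followed by F2r at 67.8, Thbd at 41.0 and Pros1 at 24.3. F3 had a median of 12.4, Procr 6.60 and Tfpi 5.22, all on the same per-kilobase scale. Tfpi2 at 0.850, F5 at 0.214 and F10 at 0.0648 came last. The ranges of neighbours overlapped at F2r and Thbd, where the lowest F2r was 50.8 and the highest Thbd 58.3, and at Thbd and Pros1, F3 and Procr, Procr and Tfpi, Tfpi2 and F5, and F5 and F10. The range of Thbs1 lay wholly above that of F2r, that of Pros1 above that of F3, and that of Tfpi above that of Tfpi2. Procr ranged from 3.47 to 36.7, and so overlapped Thbd, Pros1, F3 and Tfpi. The inhibitor Tfpi2 and the factors F5 and F10 rested on few reads, between 0 and 157 counts per library.

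**Figure D1:**
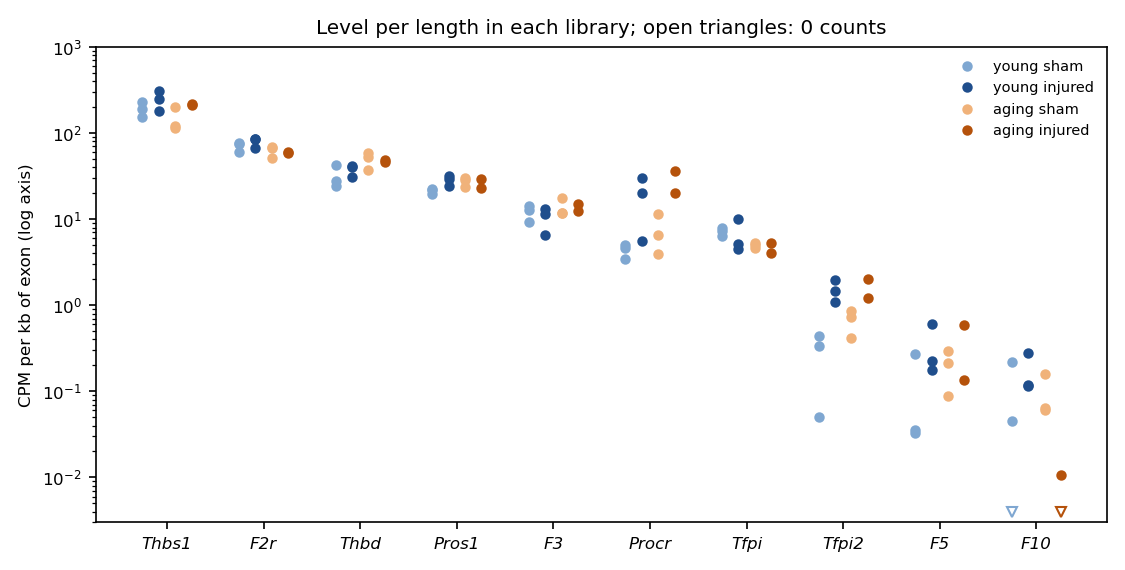
Level per length of each gene in each library, as TMM-scaled CPM per kilobase of exon on a log axis, with genes ordered by median and libraries coloured by group; open triangles are libraries with 0 counts. Thbs1 sits at the top with a median of 202 and F10 at the bottom with 0.0648, and Procr spreads most widely among the abundant genes, from 3.47 to 36.7.

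Promoter windows from RefSeq (GRCm38.p6), from 250 bases before to 50 after a start site, were found for 8 of the 10 genes, in 11 windows. The windows of Procr, of Tfpi2 (of its 3 windows, the 1 that holds the marked letters) and of F3 are shown because Procr and Tfpi2 had the largest log2 fold changes for injury averaged over age, and F3 is the gene that starts clotting. Capitals mark TGANTCA, the letters of an AP-1 site, on either strand.
Procr: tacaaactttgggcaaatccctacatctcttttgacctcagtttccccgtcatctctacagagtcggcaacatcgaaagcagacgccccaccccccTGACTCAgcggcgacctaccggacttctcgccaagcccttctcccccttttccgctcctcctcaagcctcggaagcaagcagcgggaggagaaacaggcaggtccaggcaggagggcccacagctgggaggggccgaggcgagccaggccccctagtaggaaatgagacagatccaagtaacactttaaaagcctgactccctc
Tfpi2: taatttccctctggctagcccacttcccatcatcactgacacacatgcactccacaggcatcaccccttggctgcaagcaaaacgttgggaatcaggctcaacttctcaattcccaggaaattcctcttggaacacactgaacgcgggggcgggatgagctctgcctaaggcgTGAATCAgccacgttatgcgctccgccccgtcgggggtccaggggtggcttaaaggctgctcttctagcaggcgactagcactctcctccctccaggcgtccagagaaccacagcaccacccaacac
F3: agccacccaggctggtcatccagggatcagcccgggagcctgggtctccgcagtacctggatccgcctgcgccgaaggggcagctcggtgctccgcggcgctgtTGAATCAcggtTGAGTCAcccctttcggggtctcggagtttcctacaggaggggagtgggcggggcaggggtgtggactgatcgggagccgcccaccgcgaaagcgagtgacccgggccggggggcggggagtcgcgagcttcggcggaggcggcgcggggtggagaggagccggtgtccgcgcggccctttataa
The Procr window lies at chr2:155750967-155751266 on the plus strand, the Tfpi2 window at chr6:3968326-3968625 on the minus strand and the F3 window at chr3:121723287-121723586 on the plus strand. Counted from the start site, the AP-1 letters begin at -154 in Procr, at -77 in Tfpi2 and at -146 and -135 in F3. F2r holds them too, at -204, so 4 of the 11 windows do, each of another gene. Of all 32851 RefSeq windows of this length 7.81% hold them. GC box letters, GGGCGG on either strand, were in 7 of the 11 windows (6 of the 8 genes) and in 35.7% of all windows, and F3 held 3 of them. TATAAA on either strand was in windows of 2 of the 8 genes (13.6% of all windows). Both matches were on the reverse strand, at position 44 in F3 and at -127 in Tfpi. The NF-kB letters GGGNNTTCC were in 0 (5.82%). A match is a run of letters and was not tested as a binding site, and the 4 motifs were chosen with the results of these genes known. A window without a match was likewise not tested for a site spelled otherwise.

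Among the genes that start clotting, F3 (ENSMUSG00000028128, chromosome 3, 121723537 to 121735048 in mm10) showed no call in any comparison. It stood at 23.3, 35.5 and 32.4 CPM in young sham 1 to 3, 33.0, 16.6 and 28.9 in young injured, 29.5, 44.0 and 29.6 in aging sham, and 37.6 and 31.3 in aging injured. The lowest value was young injured 2 and the highest aging sham 2, and sham and injured overlapped at both ages. The log2 fold change was -0.22 ± 0.26 (SE) in young valves (edgeR adjusted p = 0.878) and 0.0049 ± 0.29 in aging valves (adjusted p = 0.999). The young change was 0.017 without young injured 2.

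F10, the gene of coagulation factor X (ENSMUSG00000031444, chromosome 8, 13037308 to 13056676), had 0, 4 and 15 counts in young sham, 12, 27 and 10 in young injured, 6, 14 and 5 in aging sham, and 0 and 1 in aging injured 1 and 2. The libraries with 0 or 1 count are young sham 1 and both aging injured, the same libraries that held counts for fewer genes. A count of 0 allows up to 0.0870 CPM in young sham 1 and 0.107 CPM in aging injured 1. Aging sham libraries held 25 counts in all and aging injured 1, a ratio after scaling of 16.1 (exact 95% limits 2.63 and 661, for counting error only). The edgeR test did not pass for that comparison (adjusted p = 0.601). The part of the lower gene detection in this difference was not tested.

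F5, the gene of factor V, the cofactor of factor X and a target of activated protein C (ENSMUSG00000026579, chromosome 1, 164151838 to 164220277), was low and uneven. It stood at 0.261, 0.245 and 2.01 CPM in young sham, 1.67, 4.46 and 1.32 in young injured, 0.663, 2.16 and 1.59 in aging sham, and 4.33 and 0.994 in aging injured. Sham and injured values overlapped at both ages, with young sham 3, young injured 2 and aging injured 1 well above the others of their groups. Its log2 fold change for injury averaged over age was 1.22 ± 0.67 (edgeR adjusted p = 0.537), and it was 0.52 without aging injured 1.

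F2r encodes PAR1, the receptor through which thrombin signals to cells (ENSMUSG00000048376, chromosome 13, 95601804 to 95618459). It stood at 259, 203 and 246 CPM in young sham, 226, 286 and 286 in young injured, 224, 170 and 230 in aging sham, and 203 and 198 in aging injured. Both aging injured libraries lay below the 3 young injured ones, while sham and injured overlapped at both ages. The part of the lower gene detection of the aging injured libraries in this age difference was not tested. The log2 fold change for age in injured valves was -0.41 ± 0.18 (edgeR adjusted p = 0.390), and for injury averaged over age it was 0.06 ± 0.12 (adjusted p = 0.895).

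Of the inhibitors of the first step, Tfpi (ENSMUSG00000027082, chromosome 2, 84432855 to 84476775) encodes the Kunitz-type inhibitor of the tissue factor complex. It stood at 34.6, 40.3 and 42.9 CPM in young sham, 28.3, 24.5 and 54.9 in young injured, 27.1, 25.1 and 29.0 in aging sham, and 28.5 and 21.9 in aging injured. Every aging sham library was below every young sham library, and 9.08% of all genes tested were separated in that way. The log2 fold change for age in sham valves was -0.53 ± 0.26 and did not pass (edgeR adjusted p = 0.570). Summed smooth muscle markers separated the same libraries, at 6904 to 16966 CPM in young sham and 19008 to 22959 in aging sham, as did mesothelial markers, at 16.5 to 63.6 and 119 to 224. Their part in the age differences of Tfpi, Thbd and Pros1 was not tested. The highest value, in young injured 3, was in the library with the highest summed cardiomyocyte markers. The change with injury was -0.13 ± 0.26 in young valves, and -0.57 ± 0.17 without young injured 3 (edgeR adjusted p = 0.130). With the cardiomyocyte markers as a covariate it was 0.048, and the cause of these shifts was not tested.

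Tfpi2 (ENSMUSG00000029664, chromosome 6, 3962595 to 3988919) encodes a related secreted Kunitz inhibitor that acts on plasmin and other proteases. It stood at 0.0870, 0.767 and 0.591 CPM in young sham and at 1.92, 3.46 and 2.58 in young injured. In aging valves it stood at 0.718, 1.26 and 1.49 in sham and at 2.09 and 3.54 in injured. The highest sham value, in aging sham 3, was below the lowest injured value, in young injured 1. Of all genes tested 1.26% had every injured above every sham library, and 0.32% the reverse. The counts behind these values were 3 to 42 in sham and 59 to 122 in injured libraries. The log2 fold change was 2.46 ± 0.69 in young valves (edgeR adjusted p = 0.215) and 1.29 ± 0.71 in aging valves (adjusted p = 0.641). DESeq2 called it in young valves (adjusted p = 0.00967) and averaged over age (adjusted p = 0.00577). When young sham 1 and both aging injured libraries were given a term of their own, the averaged change was 3.08 and was called (edgeR adjusted p = 0.0537). The aging change was then 4.20 ± 1.01 (adjusted p = 0.156). As every aging injured library carries that term, it was estimated only from young sham 1 against young sham 2 and 3. Both values thus rest on young sham 1, which held 3 counts of Tfpi2.

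In the protein C pathway, Thbd (ENSMUSG00000074743, chromosome 2, 148404466 to 148408188) was the most abundant of the endothelial anticoagulant genes per kilobase. It stood at 102, 90.8 and 157 CPM in young sham, 116, 150 and 153 in young injured, 138, 198 and 217 in aging sham, and 170 and 181 in aging injured. Sham and injured overlapped at both ages, and the lowest values were in young sham 1 and 2. The log2 fold change for age in sham valves was 0.66 ± 0.22, with 1 of 3 aging sham values inside the young range (edgeR adjusted p = 0.442). For injury it was 0.26 ± 0.22 in young (adjusted p = 0.797) and -0.07 ± 0.25 in aging valves (adjusted p = 0.975).

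Procr (ENSMUSG00000027611, chromosome 2, 155751117 to 155755471) stood at 9.48, 7.05 and 10.2 CPM in young sham and at 11.4, 60.6 and 41.1 in young injured. It stood at 7.90, 13.4 and 23.3 in aging sham and at 74.6 and 41.3 in aging injured. Within each age every injured library was above every sham library, but young injured 1 was close to the young sham values and below aging sham 2 and 3. Young injured 1 was also the library with the lowest summed pan-endothelial markers. As a share of that sum Procr took 0.729% to 1.56% in the 6 sham libraries, 1.99% in young injured 1 and 3.39% to 6.17% in the other 4 injured libraries. The low sum enters every such share of young injured 1. F3, Thbd, Tfpi and Tfpi2 had their highest shares of all 11 libraries there, at 5.76%, 20.3%, 4.94% and 0.334%. The 8 macrophage markers summed to 568 to 752 CPM in young sham and 605 to 1049 in young injured, and to 632 to 882 in aging sham and 970 to 976 in aging injured, so they separated in aging valves. The 8 valve interstitial markers separated in young valves, at 14107 to 17451 in sham and 19386 to 23793 in injured libraries, and overlapped in aging valves, at 13516 to 15766 and 15534 to 17952. Other sums separated in aging valves too. Adipocyte markers rose from 70.1 to 144 CPM in sham to 185 to 506 in injured, neutrophil markers from 3.20 to 4.00 to 5.67 to 6.78, and platelet markers also rose. Smooth muscle markers fell from 19008 to 22959 to 16534 to 18768, and mesothelial markers from 119 to 224 to 72.7 to 81.8. These sums overlapped in young valves. The part of any of these markers in the Procr change was not tested.

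The log2 fold change of Procr was 2.08 ± 0.54 in young valves (edgeR adjusted p = 0.181) and 1.96 ± 0.58 in aging valves (adjusted p = 0.386), neither past the threshold alone. The difference between the ages was -0.11 ± 0.78 (adjusted p = 0.993), an interval too wide to show whether they differ. The call over both ages was lost without any 1 of young sham 1, 2 or 3, young injured 2, or aging sham 1 or 2, with changes of 1.76 to 2.08 and adjusted p-values of 0.106 to 0.198. It was also lost with limma-voom (adjusted p = 0.139) and with the term of their own for the libraries with fewer genes (edgeR adjusted p = 0.137). With the pan-endothelial markers as a covariate, a setting chosen after seeing the data, it was called at an edgeR adjusted p of 0.00588.

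Pros1 encodes protein S (ENSMUSG00000022912, chromosome 16, 62854307 to 62929346). It stood at 92.1, 90.4 and 80.0 CPM in young sham, 119, 130 and 99.5 in young injured, 96.0, 123 and 116 in aging sham, and 119 and 93.0 in aging injured. All young injured and all aging sham libraries were above all young sham libraries, while aging sham and aging injured overlapped. The change with injury in young valves was 0.41 ± 0.15 (edgeR adjusted p = 0.405) and that with age in sham valves 0.35 ± 0.15 (adjusted p = 0.525). These comparisons share the young sham libraries. The difference in injury change between the ages was -0.48 ± 0.23 (adjusted p = 0.651).

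**Figure D2:**
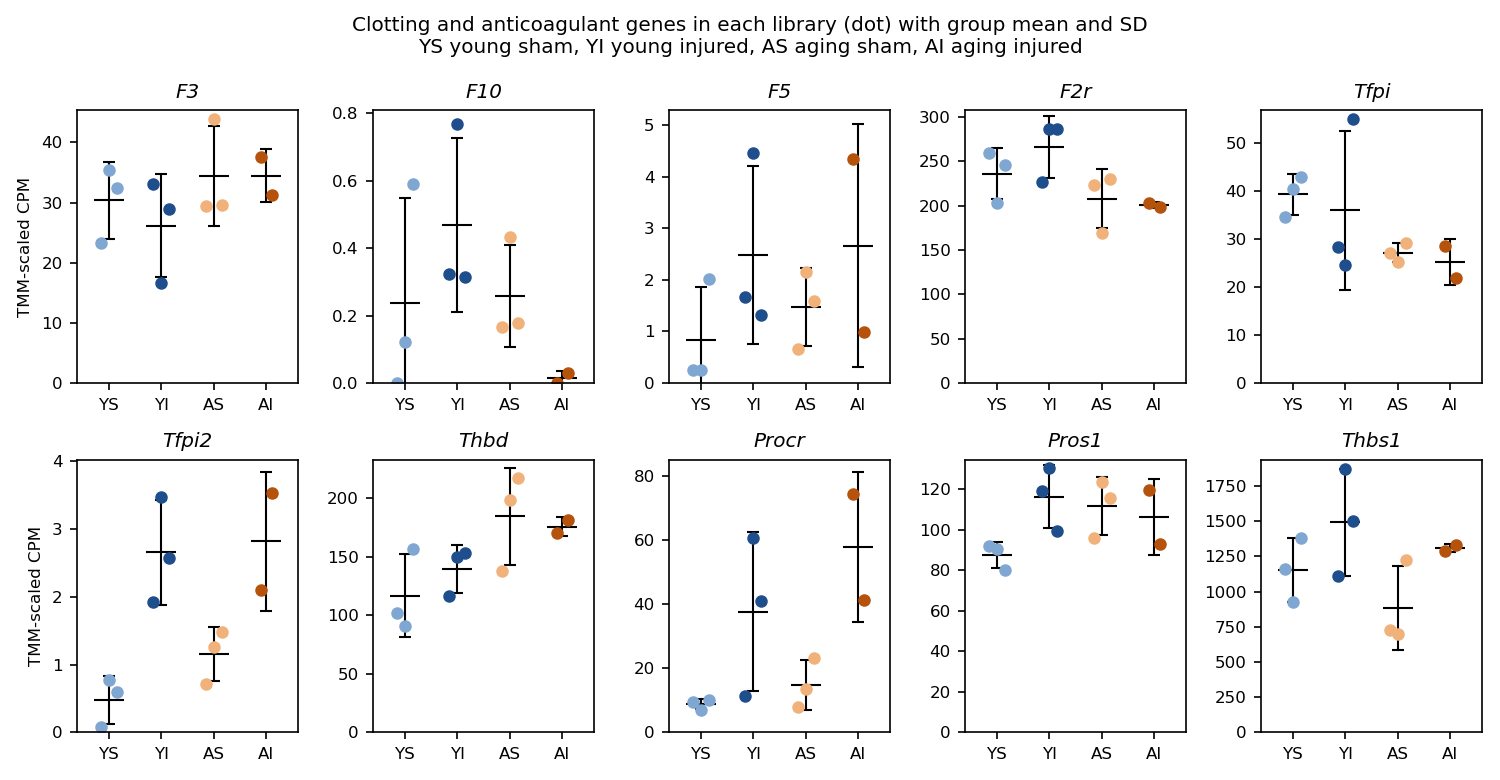
TMM-scaled CPM of the 10 genes, 1 panel each, with a dot per library, a bar at the group mean and whiskers of 1 SD (YS young sham, YI young injured, AS aging sham, AI aging injured). Procr and Tfpi2 are higher in injured than in sham valves at both ages, with young injured 1 at 11.4 CPM the lowest injured value of Procr, while F3 and Thbd overlap.

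Thbs1, which overlaps an antisense lincRNA of at most 233 counts, encodes thrombospondin 1, a matrix glycoprotein that platelets release and injured tissue makes (ENSMUSG00000040152, chromosome 2, 118111876 to 118127133). It stood at 1157, 928 and 1381 CPM in young sham, 1110, 1869 and 1498 in young injured, 726, 700 and 1226 in aging sham, and 1287 and 1328 in aging injured. Injured libraries lay above sham in aging valves, and overlapped with them in young valves. The change averaged over age was 0.47 ± 0.19 (edgeR adjusted p = 0.383). The 6 platelet markers separated with Thbs1 in aging valves, at a sum of 18.5 to 21.8 CPM in sham and 22.4 to 26.6 in injured libraries. In young valves they overlapped, at 15.2 to 19.4 and 16.3 to 31.4, with the highest sum in young injured 2, the library with the highest Thbs1. The part of platelets in the Thbs1 values was not tested.

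To set the starter against the surface anticoagulants, the per-kilobase level of F3 was divided by that of Procr, Thbd or Tfpi within each library. The F3 to Procr ratio was 1.02 to 4.04 in the 6 sham libraries. It was 0.219 to 0.609 in 4 injured libraries and 2.32 in young injured 1, which lay within the sham range. The F3 to Thbd ratio was 0.305 to 0.576 in young sham, 0.163 to 0.419 in young injured, 0.201 to 0.327 in aging sham, and 0.326 and 0.255 in aging injured, so all groups overlapped. The F3 to Tfpi ratio was 1.45 to 1.91 in young sham and 1.14 to 2.52 in young injured. It was 2.20 to 3.78 in aging sham and 2.85 and 3.10 in aging injured, above all young sham values. The ratios are descriptions without a test, and F3 itself overlapped between all groups.

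**Figure D3:**
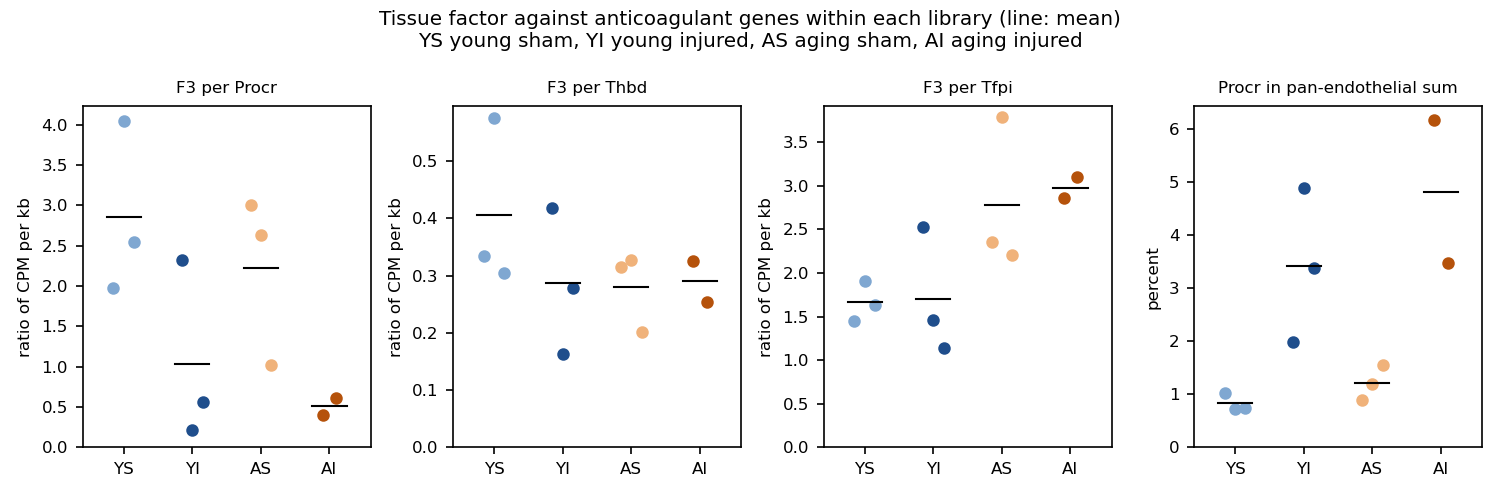
Ratio of F3 to Procr, Thbd and Tfpi (CPM per kilobase of exon) and Procr as a percent of the summed pan-endothelial markers, with a dot per library and a line at the group mean (YS young sham, YI young injured, AS aging sham, AI aging injured). The F3 to Procr ratio is under 0.61 in 4 of 5 injured libraries and over 1.01 in all sham libraries, and the F3 to Thbd ratio overlaps in all groups.

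Over the 10 genes, all of which passed the filter on low counts, edgeR called 0 for injury in young valves, where 0.418% of all genes were called, 0.403% upward and 0.0155% downward. At an unadjusted p under 0.05 there were 3 of them, Procr, Tfpi2 and Pros1, against 9.19% of all genes. DESeq2, which gave F10 no adjusted p there, called 2 of the 10 and 1.57% of the 17103 genes it gave an adjusted p. The limma-voom test called 0 and 0.289% of all genes. The median log2 fold change was 0.39 over the 10 genes and 0.01 over all genes tested. In aging valves edgeR called 0 of 10 and 0% of all genes, 1 of 10 had an unadjusted p under 0.05 (8.83% of all genes), and DESeq2 called 1, Procr, and 1.81% of all genes, and limma-voom 0 and 0%. The medians there were -0.02 and -0.01.

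With age in sham valves edgeR called 0 of the 10 genes and 0.0258% of all genes, 0.0207% upward and 0.00516% downward. The median was 0.26 over the 10 genes and 0.02 over all genes. At an unadjusted p under 0.05 there were 2, Thbd and Pros1 (9.19% of all genes), and DESeq2 called 0 (1.05% of all genes) and limma-voom 0 (0.0103%). With age in injured valves edgeR called 0 of 10 and 0.062% of all genes, 0.0465% upward and 0.0155% downward, with 2 at an unadjusted p under 0.05, F2r and F10 (12.5% of all genes), and 0 by DESeq2 (3.1% of all genes) and limma-voom (0.0568%). The difference in injury change between the ages gave 0 of 10 with edgeR, DESeq2 and limma-voom, 0 at an unadjusted p under 0.05, and 0% of all genes called by edgeR and limma-voom and 0.899% by DESeq2. For Tfpi2 that difference was -1.17 ± 0.98 (edgeR adjusted p = 0.820).

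Separation between groups was also common among all genes. In young valves 3 of the 10 genes had every injured above every sham library, Procr, Pros1 and Tfpi2, against 9.54% of all genes, and 0 were separated downward, against 5.07%. In aging valves 3 did, Procr, Tfpi2 and Thbs1, against 11.1% of all genes, and F10 was separated downward, as were 16.7% of all genes. With age, sham valves separated upward for Pros1 (11.8% of all genes) and injured valves for Thbd (9.89%), while Tfpi was separated downward in sham (9.08%) and F10 and F2r in injured valves (14.5%). Both aging injured libraries had fewer genes detected than the young injured ones, so age and gene detection cannot be told apart in injured valves.

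**Figure D4:**
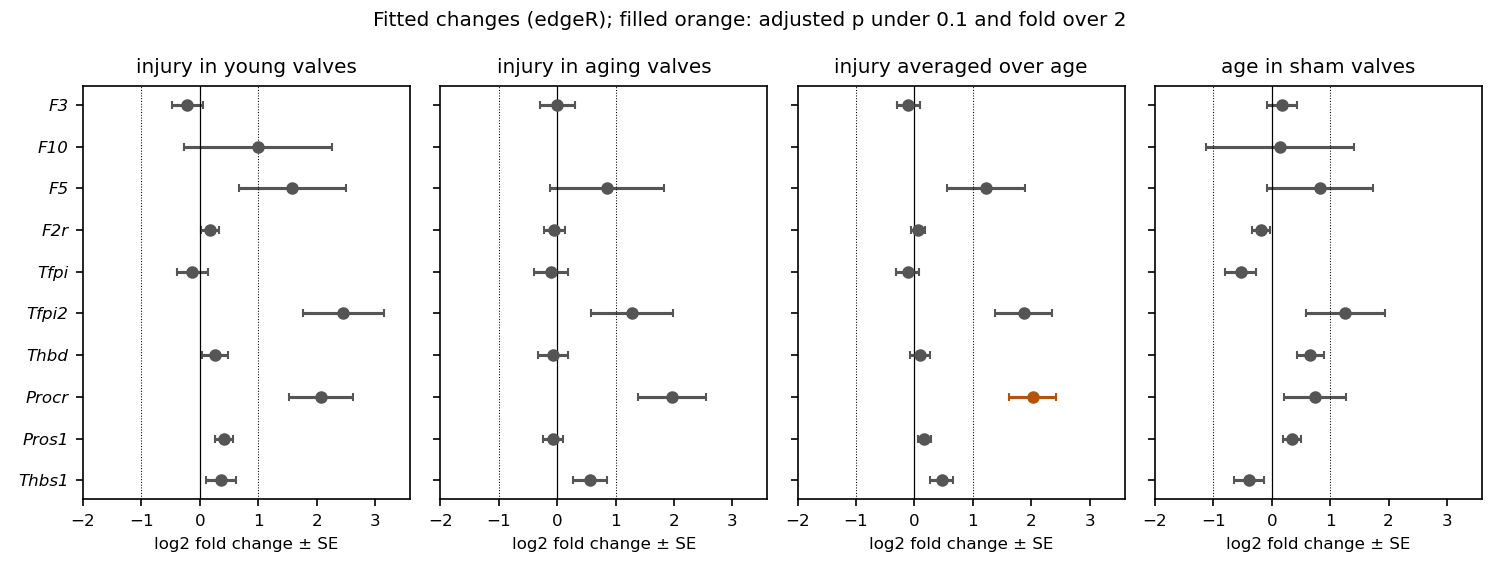
Log2 fold changes with SE from the edgeR fit for the 10 genes in 4 comparisons, with dotted lines at a 2-fold change; F10 is left out where aging injured libraries, with 1 count in all, enter. Procr, at 2.02 ± 0.40 for injury averaged over age, is the 1 gene past the threshold, drawn in orange, and F3 and Tfpi lie near 0 in each injury comparison.

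A list of 47 other clotting, anticoagulant and fibrinolysis genes was read for context, of which 31 passed the filter on low counts. Among these 31 edgeR called 0 in each of the 6 comparisons. For injury averaged over age 22 had positive and 9 negative changes, where 47.8% of all genes were positive. The median was 0.15 against -0.01 for all genes, and 10 had an unadjusted p under 0.05 against 11.5% of all genes. Among those 10, Serpind1 (-2.77 ± 0.97, 134 counts in all) and Stab2 (-1.82 ± 0.76, 317 counts) fell, and the others rose. Serpind1 had 1 count in each aging injured library and 7 to 25 in aging sham. Stab2 had 0 counts in aging injured 1, 24 in aging injured 2 and 41 to 50 in aging sham. The part of the lower gene detection in these falls was not tested. The 5 with the smallest p were Anxa2, S100a10, Vkorc1, Mcfd2 and Plaur. Anxa2 and S100a10 encode the subunits of a plasminogen-binding complex, and stood at 0.53 ± 0.11 and 0.59 ± 0.13 on the log2 scale, with edgeR adjusted p-values of 0.0731 and 0.0880 and folds under 2. Anxa2 stood at 0.93 ± 0.15 in young (adjusted p = 0.0321) and 0.14 ± 0.16 in aging valves (adjusted p = 0.884), and S100a10 at 0.99 ± 0.17 (adjusted p = 0.0481) and 0.18 ± 0.19 (adjusted p = 0.865). The edgeR test of the difference between the ages did not pass for Anxa2 (-0.80 ± 0.22, adjusted p = 0.450) or S100a10 (-0.81 ± 0.26, adjusted p = 0.519). Vkorc1, the vitamin K reductase needed to make clotting factors and proteins C and S, stood at 0.36 ± 0.08 (adjusted p = 0.106), and Mcfd2, a cargo receptor subunit for factors V and VIII, at 0.39 ± 0.10 (adjusted p = 0.130). Plaur, the urokinase receptor, stood at 7.17 ± 2.87 CPM in young sham, 20.1 ± 12.3 in young injured (SD, n = 3 each), 10.1 ± 1.60 in aging sham (n = 3) and 17.4 ± 3.77 in aging injured (n = 2). Its change averaged over age was 1.14 ± 0.31 (edgeR adjusted p = 0.166).

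Likeness of pattern was read as Pearson's r of log2 CPM over the 11 libraries, as a description with no test. The libraries share groups and tissue makeup, which such values carry. The 5 genes most like Procr were Tmem173, Lgmn, Ch25h, Ddb1 and Rbms1, at r of 0.91 to 0.94 (Spearman's rho 0.82 to 0.95). The 5 most like Thbd were Plat, the tissue plasminogen activator gene, Icam1, Gm8995, Syne3 and H2-D1, at 0.89 to 0.93 (rho 0.80 to 0.91). Those most like F3 were Gm16576, Tmem177, Nr2c2, 4930458D05Rik and Oxsr1, at 0.87 to 0.92 (rho 0.55 to 0.86).

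**Figure D5:**
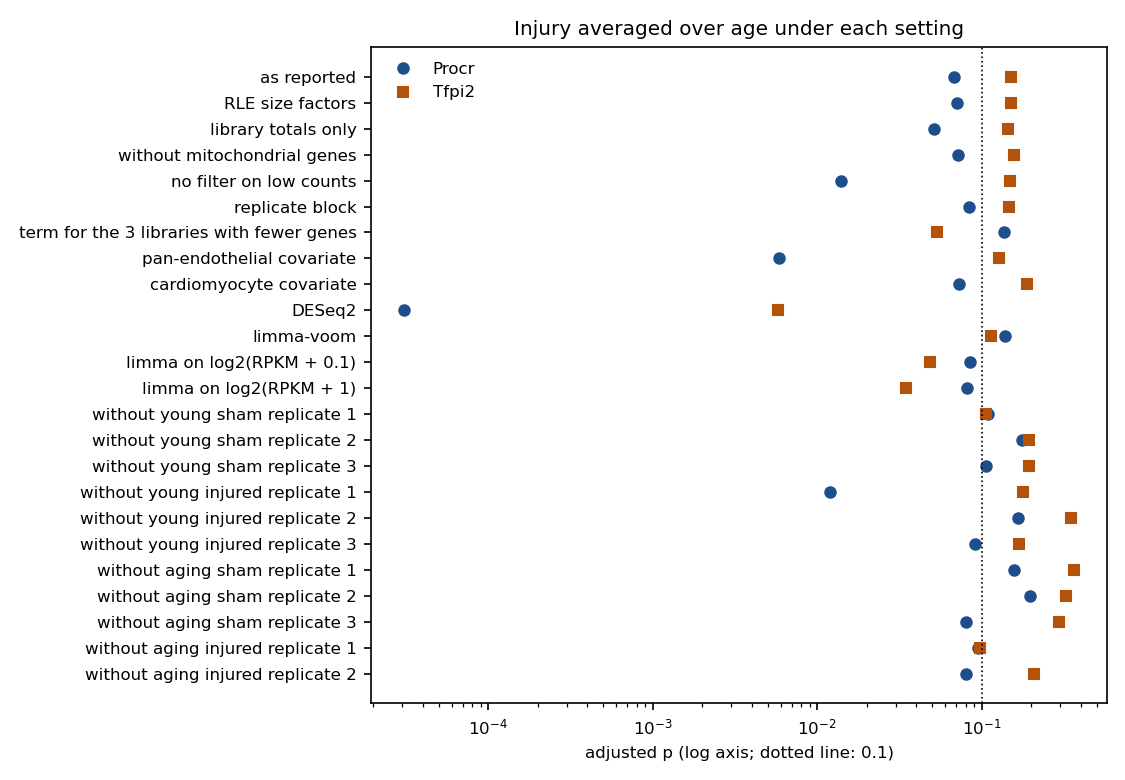
Adjusted p of Procr and Tfpi2 for injury averaged over age under each setting and with each library left out, on a log axis, with a dotted line at 0.1. Procr lies between 3.1e-05 and 0.198 and is above the line without any 1 of 6 of the 11 libraries, and Tfpi2 lies between 0.00577 and 0.362.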

How the data were processed

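Raw counts for 46983 genes were deposited by the authors without normalization, together with RPKM values for a filtered set of 13526 genes, 8 of the 10 members among them. The submitters' processing notes name mm10 and TopHat2 2.1.0; no source used here gives the counting program or whether it used strand. Without strand, reads of antisense genes cannot be told apart: an antisense lincRNA overlaps exons of F5 (at most 4 counts in a library) and of Thbs1 (at most 233). A single library column of each table (1 per table) matched no sample and was not used.

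Genes were kept by filterByExpr with a minimum count of 10, which left 19366. Tests were edgeR 4.0.16 quasi-likelihood F tests (R 4.3.3) with TMM scaling and 4 group means over all 11 libraries, with Benjamini-Hochberg adjustment over all genes tested. SE was derived from the fold change and its F statistic. The fits were tested on simulated data with the same spread for all genes. The lower gene detection of 3 libraries was not part of that simulation. DESeq2 1.42.0 and limma 3.58.1 served as alternatives, as did other scalings, no filter, covariates, log2(RPKM + 0.1), log2(RPKM + 1) and leaving out each library. Shares of all genes called by DESeq2 are over the genes it gave an adjusted p, 17103 to 19353 by comparison. Levels per kilobase used the union of exons in GENCODE M21. Libraries within a group differed far beyond sampling noise (chi-square per degree of freedom of 20.9 or more). Replicate numbers mark different mice. All 10 members are named, and of the 47 other pathway genes those called (0) plus the 5 with the smallest p for injury averaged over age. Serpind1 and Stab2, and F2, Fgb, F7 and Proc in the closing section, were chosen after their values were seen. The members and lists were chosen with earlier results of these data known. Counting intervals and floors cover counting error only.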

Additional observations from a re-analysis of the deposited data

How the results depend on the processing

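The number of the 10 genes called changed as follows. For injury in young valves it was 0, and 1 with no filter, with the pan-endothelial covariate and with log2(RPKM + 0.1) or log2(RPKM + 1), 2 with DESeq2, and 0 to 1 when single libraries were left out. For injury in aging valves it was 0, and 1 with DESeq2. For injury averaged over age it was 1, and 2 with DESeq2 and log2(RPKM + 0.1), 0 with limma-voom, and 0 to 2 without single libraries. With the term for 3 libraries it was also 1, but the gene was Tfpi2 in place of Procr. Both aging injured libraries carry that term, so young sham 1 against young sham 2 and 3 alone sets its size. For the 2 age comparisons and the difference between ages it was 0 throughout. Over all genes the count averaged over age was 115 and ranged from 38 to 402, and in young valves it was 81 and ranged from 11 to 447. For injury in aging valves it was 0, 329 with DESeq2 and 261 without aging injured 1, for age in sham valves 5 with a range of 1 to 200, for age in injured valves 12 with a range of 0 to 599, and for the difference between ages 0 with a range of 0 to 174. Replicate numbers came from separate mice, and deviations of same-numbered libraries correlated at -0.13 to 0.25. With 2 or 3 libraries per group these values cannot show whether same-numbered libraries shared a preparation, and the labels give no batch. The 3 libraries with fewer genes have consecutive library codes, and whether these mark a shared preparation was not tested. With the replicate block 60 genes in place of 115 were called averaged over age, and Procr, at 2.15, kept its call there.

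Some changes turned sign, none of them past the threshold. Most were near 0, but Tfpi2 in the difference between ages (-1.17 as reported), F5 in aging valves (0.85) and F5 in sham valves with age (0.83) were not. For injury in young valves Tfpi was 0.048 with the cardiomyocyte covariate and ranged from -0.57 to 0.073 without single libraries, and F3 ranged from -0.42 to 0.017. In aging valves F3 was -0.048 with library totals only, -0.010 without mitochondrial genes, -1.7e-05 with log2(RPKM + 0.1) and -0.00089 with log2(RPKM + 1). Under the replicate block Thbd was 0.10, Tfpi 0.044 and F2r 0.013, and with the term for 3 libraries Thbd was 0.21 and Tfpi 0.16. Without single libraries F3 ranged from -0.14 to 0.22, F2r from -0.17 to 0.030, Pros1 from -0.27 to 0.094, Thbd from -0.24 to 0.064, F5 from -0.56 to 1.56 and Tfpi from -0.32 to 0.070. Averaged over age, the term for 3 libraries gave F3 0.088 and F2r -0.0051, and without single libraries F3 ranged from -0.21 to 0.015 and F2r from -0.0040 to 0.11. For age in sham valves F10 was -0.45 with the term for 3 libraries and -0.13 with the cardiomyocyte covariate, where F5 was -0.032, and without single libraries F10 ranged from -0.45 to 2.02 and F3 from -0.041 to 0.30. The difference in injury change between ages for Procr was 0.39 with the replicate block, 0.043 with the cardiomyocyte covariate, 0.29 with limma-voom, 0.18 with log2(RPKM + 0.1) and 0.20 with log2(RPKM + 1), and -0.60 to 0.43 without single libraries, and for Tfpi2 it was 2.24 with the term for 3 libraries. The cause was not tested. A fit of only the groups compared was not run for the averaged comparison or the difference between ages, which use all 4 groups. With 1 library left out of the aging injured group, the lone library is assumed to vary like the others.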

Other observations

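Several plasma factor genes were counted in 1 library only. F2, the gene of prothrombin, had 27 counts and Fgb, a fibrinogen chain, 95 counts, all of them in young sham 1, at 0.783 and 2.75 CPM, and 0 in the other 10 libraries. The 4 hepatocyte markers summed to 0.261 CPM in that library and to 0 to 0.935 CPM in the other 10, highest in aging injured 2. F7, the gene of the factor that tissue factor binds, had counts in 6 libraries and was highest in aging injured 1 at 1.21 CPM. Proc, the gene of protein C itself, had 0 counts in all 11 libraries. These 4 genes were chosen after their values were seen.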
